A study of Mus musculus with 4 samples.

Results

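The p53 response genes examined here were Trp53, which encodes the transcription factor p53, and 9 of its standard target genes, namely Mdm2, Cdkn1a, Ccng1, Bax, Bbc3, Zmat3, Trp53inp1, Phlda3 and Gadd45a. They were taken as the rows of the deposited gene table whose symbol equals one of these names. All 10 were among the 13834 genes of the table, and all 10 were among the 12542 genes that passed edgeR's filter on low counts and were tested. RNA was sequenced from peritoneal macrophages of 2 Dnmt1 fl/fl samples and 2 Dnmt1 KO samples. Dnmt1 fl/fl animals carry floxed Dnmt1 alleles, for which no Cre is stated, and the labels call their genotype wt. Dnmt1 KO animals carry the same floxed alleles with Cre recombinase driven by the LysM promoter, which is active in myeloid cells, so that lymphocytes in the peritoneal fluid would keep Dnmt1. The methods for peritoneal macrophages give mice aged 10 weeks and collection 3 days after intraperitoneal thioglycolate broth, an irritant that draws leukocytes into the cavity. They go on to culture of the cells, and whether the sequenced cells were cultured is not stated. Library depth was 20228071 counts for Dnmt1 fl/fl replicate 1, 24198943 for its replicate 2, 21767795 for Dnmt1 KO replicate 1 and 22611219 for its replicate 2. The study's general statement on sample size allows either independent repeats or animals, and which of these the samples of a genotype were is not given. The p-values therefore measure only the spread between these samples, which may not be a spread between animals.

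The p53 protein is kept scarce in unstressed cells because the ubiquitin ligase Mdm2, itself a p53 target, binds it and sends it for degradation. DNA damage and other stresses break this loop, and p53 then switches on genes that stop the cell cycle, such as Cdkn1a, and genes that start apoptosis, such as Bax and Bbc3. Since p53 is controlled mostly at the level of the protein, its target transcripts are commonly read as a sign of its activity. Dnmt1 copies DNA methylation onto newly made strands, and its loss in dividing cells is known to set off this pathway, whereas mature macrophages divide little.

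Dnmt1, the deleted gene, was read first as a check of the labels. Its level was 86.6 and 67.0 CPM in Dnmt1 fl/fl replicates 1 and 2, against 37.0 and 42.7 CPM in Dnmt1 KO replicates 1 and 2, where CPM is a gene's counts brought to one fixed library total with edgeR's TMM scaling. The genotypes did not overlap, Dnmt1 KO being the lower, and transcript remained in both Dnmt1 KO samples. The log2 fold change, here always Dnmt1 KO against Dnmt1 fl/fl, was -0.95 (standard error 0.24), with an adjusted p of 1.00 from edgeR's quasi-likelihood test with Benjamini-Hochberg adjustment over all genes tested. Without Dnmt1 KO replicate 2 the adjusted edgeR p was 0.0368, in a fit in which 5.37% of all genes tested passed. It was 0.282 with the crossed pairing, which joins Dnmt1 KO replicate 1 with Dnmt1 fl/fl replicate 2 and the remaining samples as blocks and was added after the data were seen. Under the other 11 alternatives, DESeq2 and limma-voom among them, the adjusted p was 1.00. Without Dnmt1 fl/fl replicate 1 the log2 fold change was -0.75 and the unadjusted edgeR p, 0.00839 with all samples, was 0.140.

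All 7 macrophage markers were listed, led by Lyz2, the locus of the LysM promoter, at 29530 and 28590 CPM in Dnmt1 fl/fl replicates 1 and 2, against 11350 and 15740 CPM in Dnmt1 KO replicates 1 and 2. The genotypes did not overlap for Lyz2, with a log2 fold change of -1.10 (standard error 0.32), and the cause was not tested. The other 6 markers together came to 5741, 5529, 6096 and 5544 CPM in the same order of samples. The label of macrophages thus had its defining transcripts in every sample, although single markers within that sum differed between the Dnmt1 KO replicates in both directions. Mertk was at 121 and 234 CPM and Fcgr1 at 334 and 184 CPM in Dnmt1 KO replicates 1 and 2. Markers of other cells differed between replicates too. Of 8 neutrophil markers 6 were listed (not Ngp or Camp), and without Csf3r, the most abundant of them, which macrophages also express, they summed to 23.0, 115, 565 and 26.1 CPM. B cell markers, 6 of 6 listed and led by Ighm, summed to 318, 483, 130 and 525 CPM. Dnmt1 KO replicate 1 was therefore the sample with the most neutrophil transcript and the least B cell transcript, and Dnmt1 fl/fl replicate 2 came next in neutrophil transcript. Markers of T cells, eosinophils, mast cells, dendritic cells and mesothelial cells summed to at most 43.4 CPM in any sample. Among them, mesothelial markers (6 of 6 listed, led by Krt8) came to 6.58, 9.05, 15.0 and 5.21 CPM and dendritic cell markers (5 of 5, led by Cd209a) to 35.5, 32.1, 18.4 and 43.4 CPM, so these too were highest or lowest in Dnmt1 KO replicate 1. In bulk samples such as these, fewer cells of a type and less RNA per cell cannot be told apart.

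No p53 response gene separated the genotypes. Each had an adjusted p of 1.00 from edgeR. Of the 10 genes, 0 had an adjusted p under 0.05 in edgeR's test and 0 had an unadjusted p under 0.05, and DESeq2 and limma-voom also called 0 on either measure. Over all genes tested, 0% had an adjusted p and 0.279% an unadjusted p under 0.05. In 0 of the 10 genes did both Dnmt1 KO samples lie above or both lie below both Dnmt1 fl/fl samples, against 16.7% of all genes tested. The log2 fold change was above 0 in 7 genes and below 0 in 3, with a median of 0.12 over the 10 genes and 0.0046 over all genes tested. The difference between genotypes was larger than the pooled SD between replicates for 2 of the 10, Phlda3 and Gadd45a, or 20% against 24.2% of all genes tested, and in both the highest sample was Dnmt1 KO replicate 1. This balance moved with the samples kept: 5 genes were above 0 and 5 below without Dnmt1 KO replicate 1 (median 0.0236), 6 and 4 without Dnmt1 KO replicate 2 (median 0.0616), 7 and 3 without Dnmt1 fl/fl replicate 1 (median 0.0488), and 9 and 1 without Dnmt1 fl/fl replicate 2 (median 0.1177). Leaving out Dnmt1 KO replicate 2 also brought 3 genes, Phlda3, Gadd45a and Bax, under an unadjusted edgeR p of 0.05 and 1, Gadd45a, under an adjusted p of 0.05. In that fit 5.37% of all genes tested passed the adjusted threshold and 27.3% the unadjusted one.

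**Figure D1:**
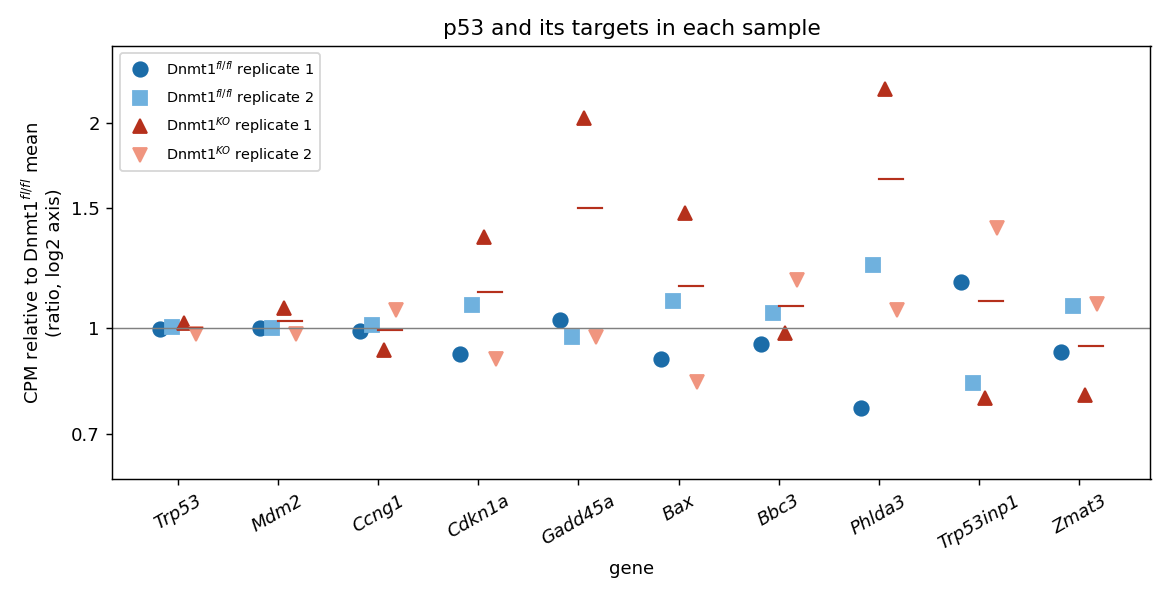
CPM of each p53 response gene in each of the 4 samples, divided by the gene's Dnmt1 fl/fl mean, on a log2 axis, with a short line at the Dnmt1 KO mean (n = 2 per genotype). Trp53, Mdm2 and Ccng1 lie close to 1 in all 4 samples, whereas Dnmt1 KO replicate 1 stands above the other samples for Cdkn1a, Gadd45a, Bax and Phlda3.

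Trp53 itself (chr11:69580359-69591873, plus strand, GRCm38) was measured at 34.7 and 34.9 CPM in Dnmt1 fl/fl replicates 1 and 2 and at 35.4 and 34.2 CPM in Dnmt1 KO replicates 1 and 2. The 2 Dnmt1 fl/fl samples sat between the 2 Dnmt1 KO samples, and the highest sample exceeded the lowest only 1.04-fold. Only 0.183% of the genes tested had a spread over the 4 samples as narrow as this. For Dnmt1 fl/fl the mean was 34.8 ± 0.167 CPM (SD, n = 2), and for Dnmt1 KO it was 34.8 ± 0.878 CPM (SD, n = 2). The 95% interval of the genotype ratio from edgeR ran from 0.713 to 1.40, since the test takes much of its error from the spread of genes of like abundance. The transcript level says nothing of the amount of p53 protein, which was not analysed here.

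Mdm2 (chr10:117688875-117710758, minus strand), the ligase that degrades p53 and answers to it, was at 77.9 CPM in both Dnmt1 fl/fl samples and at 83.5 and 76.4 CPM in Dnmt1 KO replicates 1 and 2. The Dnmt1 fl/fl samples again lay between the Dnmt1 KO samples. The log2 fold change was 0.04 (standard error 0.21), and the interval of the ratio ran from 0.716 to 1.47. Ccng1 (chr11:40748552-40755311, minus strand), which encodes cyclin G1, a regulator that acts on Mdm2, was at 103 and 105 CPM in Dnmt1 fl/fl and at 96.2 and 110 CPM in Dnmt1 KO replicates 1 and 2. Its genotypes overlapped too, and its ratio had an interval from 0.687 to 1.44. The signs of these 3 differences carry no information. When single samples were left out, the log2 fold changes of Trp53 and Ccng1 ran from -0.03 to 0.02 and from -0.11 to 0.08. That of Mdm2 became -0.03 without Dnmt1 KO replicate 1. It was -0.04 when libraries were scaled by size alone, but this scaling also moved the median over all genes by -0.067.

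Among the genes that halt division, Cdkn1a (chr17:29090976-29100727, plus strand) encodes p21, the inhibitor of cyclin-dependent kinases that carries much of the p53 arrest. It was at 68.8 and 81.2 CPM in Dnmt1 fl/fl replicates 1 and 2, 102 CPM in Dnmt1 KO replicate 1 and 67.5 CPM in Dnmt1 KO replicate 2. The highest and the lowest of the 4 samples were thus both Dnmt1 KO. The means, 75.0 ± 8.75 CPM (SD, n = 2) and 84.7 ± 24.4 CPM (SD, n = 2), differed by 0.18 on the log2 scale (standard error 0.28), less than the 0.60 between the Dnmt1 KO replicates. Leaving out Dnmt1 KO replicate 1 gave -0.16. Of its exon bases, 273 of 3553 overlap AC167363.2 on the opposite strand, and the strand setting of the counting is not given in the sources used here.

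Gadd45a (chr6:67035096-67037457, minus strand) encodes a small stress protein that binds PCNA and p21 and contributes to arrest after DNA damage. Its level was 12.2 and 11.5 CPM in Dnmt1 fl/fl replicates 1 and 2, 24.1 CPM in Dnmt1 KO replicate 1 and 11.5 CPM in Dnmt1 KO replicate 2. A single sample, Dnmt1 KO replicate 1, therefore stood far above the other 3, which lay close together. The log2 fold change of 0.59 (standard error 0.40) became -0.05 without that sample. With it and without Dnmt1 KO replicate 2 it was 1.03, and its adjusted p from edgeR was 0.0406, so the call rests entirely on which Dnmt1 KO sample is kept. Of its exon bases, 337 of 1764 overlap E230016M11Rik on the opposite strand.

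The genes of the apoptotic arm fell into separate patterns. Bax (chr7:45461697-45466898, minus strand), whose product opens the outer mitochondrial membrane, was at 69.1 and 84.1 CPM in Dnmt1 fl/fl replicates 1 and 2 and at 113 and 63.8 CPM in Dnmt1 KO replicates 1 and 2. The samples ranked in the order seen for Cdkn1a except that Dnmt1 KO replicate 2 was further below, and the Dnmt1 KO samples enclosed the Dnmt1 fl/fl samples. Its log2 fold change was 0.21 (standard error 0.33) and became -0.27 without Dnmt1 KO replicate 1. Gm45808, annotated on the same strand, shares 192 of its 1576 exon bases.

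Bbc3 (chr7:16308393-16318205, plus strand) encodes Puma, a BH3-only protein that frees Bax from its inhibitors. It stood at 16.5 and 18.4 CPM in Dnmt1 fl/fl replicates 1 and 2 and at 17.2 and 20.5 CPM in Dnmt1 KO replicates 1 and 2. Its highest sample was Dnmt1 KO replicate 2, so Bbc3 did not follow Bax across the samples. The log2 fold change was 0.11 (standard error 0.24), with an interval of the ratio from 0.717 to 1.63, and it was -0.02 without Dnmt1 KO replicate 2.

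Phlda3 (chr1:135766119-135769136, plus strand), a p53 target whose product holds back the survival kinase Akt, was the least counted of the 10, with 50 to 142 deposited counts per sample. Its level was 2.44 and 3.95 CPM in Dnmt1 fl/fl replicates 1 and 2, against 7.17 and 3.39 CPM in Dnmt1 KO replicates 1 and 2. Dnmt1 KO replicate 2 fell between the Dnmt1 fl/fl samples, and only Dnmt1 KO replicate 1 stood above them. Phlda3 had the largest log2 fold change of the 10, 0.72 (standard error 0.50). It was 0.08 without Dnmt1 KO replicate 1 and 1.16, with an adjusted edgeR p of 0.0971, without Dnmt1 KO replicate 2. The interval of its ratio, 0.695 to 3.90, was the widest of the 10.

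Trp53inp1 and Zmat3 had the opposite arrangement. Trp53inp1 (chr4:11156431-11174379, plus strand), a stress-induced protein that promotes p53 phosphorylation, was at 49.2 and 34.8 CPM in Dnmt1 fl/fl replicates 1 and 2 and at 33.1 and 58.9 CPM in Dnmt1 KO replicates 1 and 2. Zmat3 (chr3:32334792-32366014, minus strand), a zinc finger protein that binds RNA, was at 10.6 and 12.4 CPM in Dnmt1 fl/fl and at 9.19 and 12.5 CPM in Dnmt1 KO. For both genes Dnmt1 KO replicate 1 was the lowest of the 4 samples and Dnmt1 KO replicate 2 the highest, for Zmat3 by a narrow margin. The log2 fold change of Trp53inp1 was 0.13 (standard error 0.35) and that of Zmat3 -0.09 (standard error 0.29). Without Dnmt1 KO replicate 2 they were -0.34 and -0.33, and without Dnmt1 KO replicate 1 they were 0.49 and 0.11. Without Dnmt1 fl/fl replicate 2 they were -0.09 and 0.03.

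**Figure D2:**
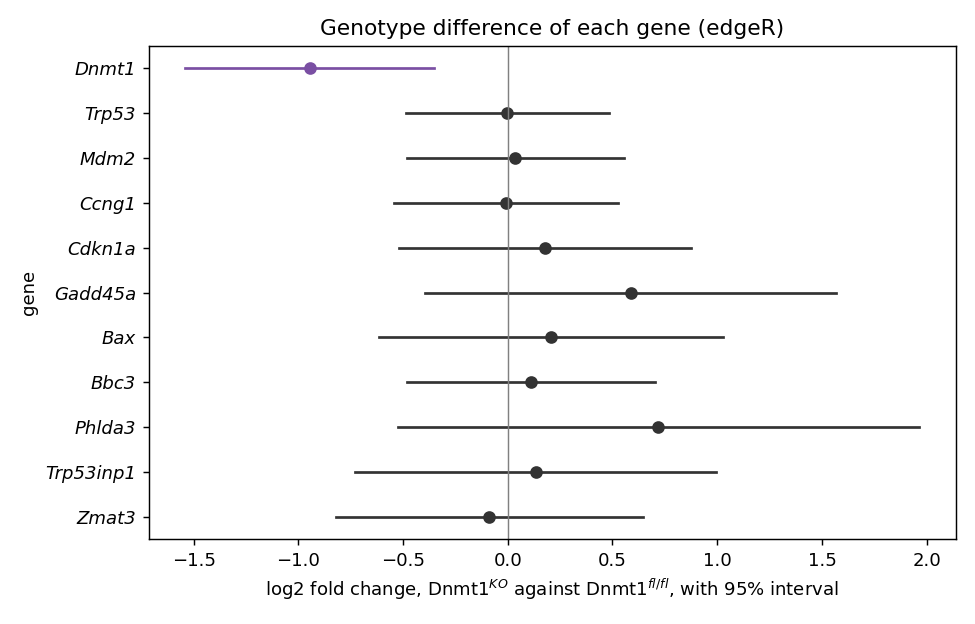
Log2 fold change of Dnmt1 and each p53 response gene with its 95% interval from edgeR (2 samples per genotype). The intervals of the 10 p53 response genes include 0, and that of Dnmt1 does not.

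The intervals show what sizes of difference the fit with all samples left possible. For Trp53, Mdm2, Ccng1, Bbc3, Zmat3, Cdkn1a and Trp53inp1 the upper end of the ratio was 1.40, 1.47, 1.44, 1.63, 1.56, 1.83 and 1.99, so that with all 4 samples an average doubling lay outside each interval, for Trp53inp1 by a narrow margin. This did not hold in every fit that left out a single sample. Without Dnmt1 KO replicate 2 a doubling lay outside the interval of each of these genes. Without Dnmt1 KO replicate 1 it lay outside for each except Trp53inp1, whose upper end was 2.01. When each sample was left out in turn, the highest upper ends for the same genes were 2.02, 2.17, 2.14, 2.47, 2.42, 2.62 and 2.69, all in fits without a Dnmt1 fl/fl sample. For Bax, Gadd45a and Phlda3 it was 2.04, 2.97 and 3.90 with all 4 samples, and a doubling lay inside. A p over the threshold does not show that the genotypes had equal levels. For 1 gene on its own, the smallest p that the exact permutation test allows with 2 samples against 2 is 0.333 (two-sided).

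The main contrast within these genes was between the Dnmt1 KO replicates. Dnmt1 KO replicate 1 was the highest of the 4 samples for 6 genes (Trp53, Mdm2, Cdkn1a, Bax, Phlda3 and Gadd45a) and the lowest for 3 (Ccng1, Zmat3 and Trp53inp1). It was the highest for 60% of the 10 genes against 38.8% of all genes tested. It was the lowest for 3 of the 10 against 4962 of the 12542 genes tested. It was the highest or the lowest for 78.4% of all genes tested, so standing at an end of the range was usual for this library. The difference of replicate 1 minus replicate 2 in log2 CPM was 1.07 for both Phlda3 and Gadd45a, 0.83 for Bax and 0.60 for Cdkn1a, and it was -0.44 for Zmat3 and -0.83 for Trp53inp1. These differences went with the length of the transcript. The longest annotated transcripts of Bax, Gadd45a, Phlda3 and Cdkn1a have 1100, 1223, 1435 and 2080 bases, whereas those of Trp53inp1 and Zmat3 have 5432 and 7797 bases. Bbc3, with 1814 bases and a difference of -0.26, was the exception. Spearman's rho between the difference and the length was -0.82 over the 10 genes and -0.41 over 12380 genes with a length, given as descriptions, since all points share the same pair of libraries. Between the Dnmt1 fl/fl samples, taken as replicate 2 minus replicate 1, rho was -0.37 over the 10 genes and -0.33 over the same wider set. That orientation was chosen after seeing the data and sets the sign, so only the size of these values can be read. With all genes split into 4 equal classes by length, the median difference was 0.43 in the class with the shortest transcripts and -0.45 in that with the longest. When the trend with length was removed from each library, a step chosen after seeing the data, the log2 fold change was 0.05 for Bax, 0.42 for Gadd45a, 0.61 for Phlda3 and 0.14 for Cdkn1a, each below its uncorrected value. It was above the uncorrected value for Trp53inp1 at 0.22, Mdm2 at 0.07, Zmat3 at 0.04, Ccng1 at 0.04 and Trp53 at 0.04, and below it for Bbc3 at 0.08. With this correction all 10 genes were above 0, with a median of 0.07, beside 7385 genes above and 5157 below 0 and a median of 0.05 over all genes tested, and 0 of the 10 passed either threshold in edgeR.

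**Figure D3:**
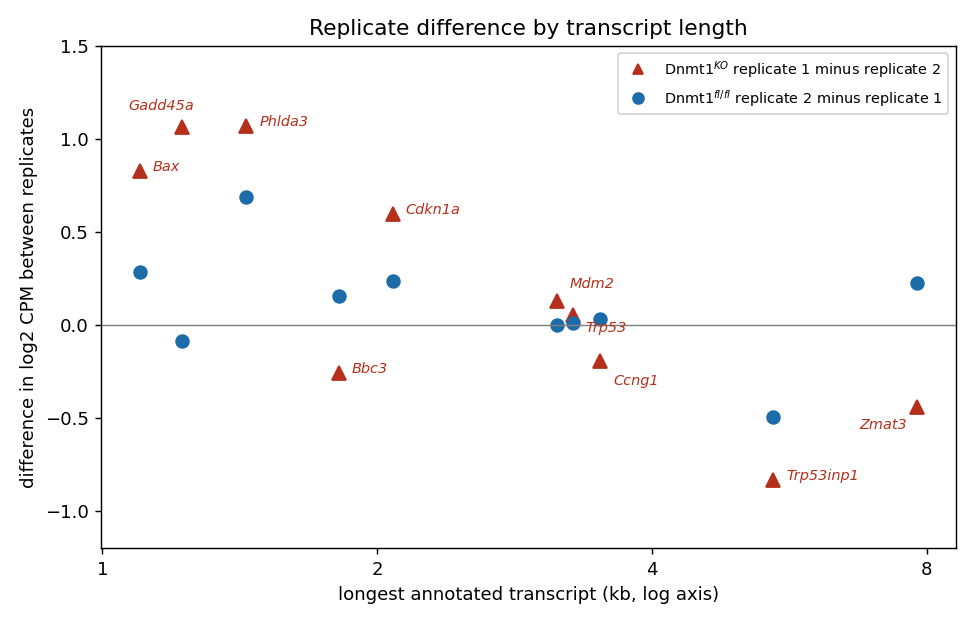
Difference in log2 CPM between the 2 samples of a genotype for each p53 response gene against the length of its longest annotated transcript, on a log axis (triangles, Dnmt1 KO replicate 1 minus replicate 2; circles, Dnmt1 fl/fl replicate 2 minus replicate 1, an order chosen after seeing the data). In Dnmt1 KO the difference runs from 1.07 for Gadd45a and Phlda3 to -0.83 for Trp53inp1.

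Marker transcripts of other cells moved with the same library. S100a9, a neutrophil gene, was at 5.55 and 60.5 CPM in Dnmt1 fl/fl replicates 1 and 2 and at 320 and 8.35 CPM in Dnmt1 KO replicates 1 and 2, and Ly6g had 1, 8, 79 and 1 counts in that order. Of the 6 listed neutrophil markers, all 6 were highest in Dnmt1 KO replicate 1, and 4 (S100a8, S100a9, Cxcr2 and Ly6g) were next highest in Dnmt1 fl/fl replicate 2, as were Cdkn1a, Bax and Phlda3, and also Trp53 and Mdm2, whose samples lay close together. These 5 of the 10 genes compare with 23.5% of all genes tested that had this order of first and second sample. For Mdm2 and Trp53 the second place rests on near-ties. Dnmt1 fl/fl replicates 1 and 2 were at 77.90 and 77.94 CPM for Mdm2 and at 34.7 and 34.9 CPM for Trp53. Their part in the count therefore carries little information. Retnlg, at 7.89, 6.22, 40.6 and 5.93 CPM, and Csf3r, at 158, 137, 169 and 159 CPM in the same order of samples, did not share that second place, nor did Gadd45a. The part that neutrophil, B cell, mesothelial or dendritic cell content plays in the values of these genes was not tested.

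Levels were compared between genes as CPM per kilobase of the longest annotated transcript, averaged over the 4 samples. Bax was the most abundant at 75.0 CPM per kb, followed by Cdkn1a at 38.4, Ccng1 at 29.4 and Mdm2 at 25.1 CPM per kb. The ranges of these 4 genes over the samples did not overlap, although the lowest value of Cdkn1a, 32.4 CPM per kb, came close to the highest of Ccng1, 31.4 CPM per kb, both in Dnmt1 KO replicate 2. Gadd45a at 12.1 and Trp53 at 10.6 CPM per kb were not ordered alike in all samples, as Gadd45a was below Trp53 in 3 of the 4. Bbc3, from 9.10 to 11.3 CPM per kb over the samples, overlapped both, and so did Trp53inp1, from 6.10 to 10.9 CPM per kb with a mean of 8.10. Phlda3 at 2.95 and Zmat3 at 1.43 CPM per kb closed the order, with no overlap between them. The order depends on the transcript taken as the length: by the shortest annotated transcript Bax stayed first at 372 CPM per kb, but Mdm2 came next at 166 and Phlda3 was last at 7.44 CPM per kb.

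The genes whose pattern over the 4 samples was most like that of Mdm2 were Nampt, Tm9sf2 and Gpr107, at root mean square distances of 0.00651, 0.00851 and 0.0101 in centred log2 CPM. Those most like Cdkn1a were Creb3, Spi1 and Emd, at 0.00991, 0.0137 and 0.0146. Within a wider distance of 0.1 lay 1713 genes for Mdm2 and 1113 for Cdkn1a. For Spi1, which encodes the macrophage transcription factor PU.1, the levels were 275, 317, 408 and 266 CPM in Dnmt1 fl/fl replicates 1 and 2 and Dnmt1 KO replicates 1 and 2, the same ranking as for Cdkn1a.

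The wider pathway was read from 5 further lists with 115 genes, of which 109 were listed and 105 tested. Of these 105, 0 had an adjusted p and 0 an unadjusted p under 0.05 in edgeR, and both counts were also 0 by DESeq2 and limma-voom. Without Dnmt1 KO replicate 2 the counts were 3 (Atm, Mdm4 and Ddb2, all lower) and 26, or 2.86% and 24.8%, below the 5.37% and 27.3% of all genes tested in that fit. Without Dnmt1 KO replicate 1 they were 0 and 6, the latter 5.71% against 2.68% of all genes tested. Without Dnmt1 fl/fl replicate 2 the unadjusted count was 1, Ak1, or 0.952% against 0.654%. By list, the unadjusted counts without Dnmt1 KO replicate 2 were 9 of 33 other p53 target genes (27.3%), 5 of 24 regulators and kinases (20.8%), 5 of 12 in the Bcl-2 family (41.7%), 3 of 7 kinase inhibitors and Gadd45 paralogs (42.9%) and 4 of 29 cell cycle genes (13.8%). Without Dnmt1 KO replicate 1 they were 2 of 33 (6.06%), 0 of 24, 4 of 12 (33.3%), 0 of 7 and 0 of 29. The genotypes did not overlap in 20 of the 105, 12 higher and 8 lower in Dnmt1 KO, or 19% against 16.7% of all genes tested.

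Other p53 target genes, 33 of 36 tested, had log2 fold changes above 0 in 14 and below 0 in 19, with a median of -0.02. Without Dnmt1 fl/fl replicate 2 they were above 0 in 20 and below in 13, with a median of 0.07, and without Dnmt1 fl/fl replicate 1 the median was -0.12. The highest were 1.63 (standard error 1.06) for Ak1, adenylate kinase, and 0.68 (standard error 0.38) for Ddit4, an inhibitor of mTORC1. Ak1 was at 0.195 and 0.837 CPM in Dnmt1 fl/fl and at 2.83 and 0.466 CPM in Dnmt1 KO replicates 1 and 2, so its highest sample was again Dnmt1 KO replicate 1. The lowest were -0.63 (standard error 0.37) for Pidd1, a scaffold of the caspase-2 complex, and -0.51 (standard error 0.60) for Epha2, an ephrin receptor.

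The regulators of p53 and the kinases of the DNA damage response, 24 of 27 tested, were above 0 in 7 and below 0 in 17, with a median of -0.05, and without Dnmt1 KO replicate 1 above 0 in 13 and below in 11, with a median of 0.05. Without either Dnmt1 KO replicate 2 or Dnmt1 fl/fl replicate 2 the median was -0.09. Mdm4, the partner of Mdm2 that blocks transcription by p53, was at 131 and 107 CPM in Dnmt1 fl/fl and at 38.7 and 156 CPM in Dnmt1 KO replicates 1 and 2. Dnmt1 KO replicate 1 lay well below the other 3 samples and Dnmt1 KO replicate 2 above them, and the log2 fold change was -0.29 (standard error 0.62). Atr, a kinase that senses stalled replication, stood at 23.2, 20.9, 11.5 and 23.7 CPM in the same order of samples, with a log2 fold change of -0.33 (standard error 0.38). The highest values of the list were 0.44 (standard error 0.37) for Ppp1r13l, an inhibitor of p53, and 0.14 (standard error 0.20) for Trp53bp2, which binds p53.

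The Bcl-2 family, 12 of 15 tested, was above 0 in 9 and below 0 in 3, with a median of 0.16, and its median was -0.11 without Dnmt1 KO replicate 1, with 4 above and 8 below 0, and 0.35 without Dnmt1 KO replicate 2, with 9 and 3. Bcl2a1a, Bcl2a1d and Bcl2l1 had an unadjusted edgeR p under 0.05 in both of these fits but in opposite directions, lower without Dnmt1 KO replicate 1 and higher without Dnmt1 KO replicate 2, and the counts of Bcl2a1a and Bcl2a1d are uncertain because these copies are nearly identical. Its ends were Bmf at 0.35 and Bad at 0.33, both BH3-only proteins, and the survival genes Bcl2 at -0.49 and Bcl2l2 at -0.21, with standard errors of 0.29, 0.26, 0.29 and 0.29. Bcl2 was at 18.5 and 28.7 CPM in Dnmt1 fl/fl and at 18.1 and 15.6 CPM in Dnmt1 KO replicates 1 and 2; the genotypes did not overlap, by a narrow margin. The inhibitors of cyclin-dependent kinases and the Gadd45 paralogs, 7 of 8 tested, were above 0 in 4 and below 0 in 3, with a median of 0.14, which ran from -0.08 without Dnmt1 KO replicate 1 to 0.29 without Dnmt1 KO replicate 2. Their highest log2 fold changes were 0.51 (standard error 0.32) for Gadd45b and 0.34 (standard error 0.34) for Cdkn2d. Their lowest were -0.76 (standard error 0.65) for Cdkn2b and -0.16 (standard error 0.49) for Cdkn1c. Cdkn2b had only 6 to 22 counts per sample.

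Cell cycle genes that p21 is known to repress, 29 of 30 tested, were above 0 in 26 and below 0 in 3, with a median log2 fold change of 0.18 against 0.0046 over all genes tested. None of the 29 passed either threshold in edgeR, and Dnmt1 KO replicate 1 was the highest sample in 19 of them, or 65.5% against 38.8% of all genes tested. The balance moved both ways with single libraries. It was 12 above and 17 below, with a median of -0.04, without Dnmt1 KO replicate 1, and 15 above and 14 below, with a median of 0.0003, without Dnmt1 fl/fl replicate 1. It was 28 above and 1 below without Dnmt1 fl/fl replicate 2 (median 0.42) and without Dnmt1 KO replicate 2 (median 0.38). With the length correction it was 26 and 3 (median 0.24), while the medians of the other lists were -0.03 for other p53 target genes (15 above, 18 below), 0.02 for the regulators and kinases (13 above, 11 below), 0.05 for the Bcl-2 family (8 above, 4 below) and -0.02 for the kinase inhibitors and Gadd45 paralogs (3 above, 4 below). Cdc20, an activator of the anaphase-promoting complex, was at 1.66 and 2.79 CPM in Dnmt1 fl/fl and at 4.19 and 3.09 CPM in Dnmt1 KO replicates 1 and 2, with a log2 fold change of 0.70 (standard error 0.45). Birc5, or survivin, had a log2 fold change of 0.49 (standard error 0.48), and the lowest were Cdc25a at -0.10 (standard error 0.30) and Mybl2 at -0.06 (standard error 0.56).

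The start regions of these genes were read from RefSeq windows of 300 bases on GRCm38.p6, 250 before and 50 after each annotated start, which were matched for 8 of the 10 genes in 11 windows. Trp53inp1 and Zmat3 had no entry. The p53 consensus half-site, a 10-base motif whose consensus equals its own reverse complement and so was read on both strands at once, was found in windows of 6 genes, namely Trp53, Mdm2, Cdkn1a, Ccng1, Bax and Gadd45a. It occurs in 6 of the 11 windows against 8.36% of all 32851 windows, and in 6 of the 8 genes against 9.55% of all 27025 genes. Sequences of 60 bases are shown for the steady genes Mdm2 and Ccng1 and for Cdkn1a, Bax and Gadd45a, which were highest in Dnmt1 KO replicate 1, with each half-site in capitals. They lie at chr10:117710910-117710969 (minus strand), chr11:40755437-40755496 (minus strand), chr17:29090903-29090962 (plus strand), chr7:45467065-45467124 (minus strand) and chr6:67037413-67037472 (minus strand). The stretch of Cdkn1a holds 2 half-sites.
Mdm2: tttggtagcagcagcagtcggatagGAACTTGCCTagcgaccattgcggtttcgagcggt
Ccng1: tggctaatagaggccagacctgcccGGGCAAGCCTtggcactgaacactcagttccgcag
Cdkn1a: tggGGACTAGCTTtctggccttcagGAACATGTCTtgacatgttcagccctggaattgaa
Bax: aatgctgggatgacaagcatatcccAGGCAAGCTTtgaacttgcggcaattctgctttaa
Gadd45a: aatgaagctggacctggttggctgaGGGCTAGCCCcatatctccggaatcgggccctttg
The letters were thus present both in genes that held level across the samples and in genes that varied, and a match of letters is a description and not a sign of binding. CpG dinucleotides, the sites where Dnmt1 maintains methylation, numbered 2 to 39 per window over the 11 windows, with a median of 23 against 7 over all windows. The lowest was in the Cdkn1a window that holds the half-sites, and another window of Cdkn1a had 23 CpG and 0 half-sites. The highest was in a window of Bbc3. Methylation was not analysed here.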

How the data were processed

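The authors deposited estimated counts per gene, without normalization, as a whole table; a shorter deposited table was not used here. The submitters' processing notes name mm10, HISAT2 2.0.5, featureCounts 1.5.0-p3 and DESeq2 1.20.0, and the annotation and strand setting are not given in the sources used here. Not all values were whole, including those of Cdkn1a, Bax, Zmat3 and Gadd45a, and how shared reads were divided is not given. Here the values were rounded to whole numbers, genes were filtered by filterByExpr, and TMM factors were applied (edgeR 4.0.16 under R 4.3.3). The two-sided quasi-likelihood F-test of edgeR compared the genotypes over 4 samples with no block, and p was adjusted by Benjamini and Hochberg across 12542 genes. Replicates varied with a common dispersion of 0.0837 (coefficient of variation 28.9%). CPM used a prior count of 1 on the log2 scale only. A floor of 3 counts corresponded to 0.12 to 0.151 CPM, for counting error only. As alternatives, RLE size factors, DESeq2 1.42.0, voom in limma 3.58.1, library size alone, other filters (none, or at least 10 counts in every sample), the replicate number as a block, and fits without each sample were run, where a lone sample is assumed to vary like the other genotype. A crossed pairing and a loess correction for transcript length (span 0.5) were added after seeing the data.

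The genes and lists were chosen with earlier results of these data known. Named genes were the 10 p53 response genes and Dnmt1; in each further list, any gene with an unadjusted p under 0.05 and the 2 highest and 2 lowest log2 fold changes; and the 3 genes nearest to Mdm2 and to Cdkn1a. S100a9 and Ly6g, and genes named for a fit without 1 sample, were chosen after their values were seen. GENCODE M21 (GRCm38) gave positions and transcript lengths by symbol, and start regions came from RefSeq on GRCm38.p6. Other calculations used Python 3.11.15.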

Additional observations from a re-analysis of the deposited data

How the results depend on the processing

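Across 13 alternatives, 118 of 143 results for single genes kept their direction and side of the threshold, and 23 changed direction. These 23 were for p53 response genes, all 10 of which overlapped between the genotypes, and none was for Dnmt1. With all 4 samples, 0 of the 10 p53 response genes passed an adjusted or unadjusted p under 0.05 under any of 9 alternatives, and their median log2 fold change ran from 0.0661 to 0.1283. Trp53 reversed to 0.0060 with DESeq2 and RLE size factors, 0.0061 with no filter and 0.0375 with the length correction, and Ccng1 to 0.0005, 0.0005, 0.0003 and 0.0408. Mdm2 reversed to -0.0385 with library size alone and Zmat3 to 0.0409 with the length correction. Such settings also moved the median over all genes. Against the main fit it shifted by -0.067 with library size alone, 0.0073 with RLE size factors and 0.0431 with the length correction. A reversal there is therefore not by itself particular to the gene. When each sample was left out in turn, log2 fold changes ran from -0.0304 to 0.0241 for Trp53, -0.0323 to 0.0991 for Mdm2, -0.1559 to 0.4435 for Cdkn1a, -0.107 to 0.0845 for Ccng1, -0.268 to 0.5623 for Bax, -0.024 to 0.2295 for Bbc3, -0.3282 to 0.1123 for Zmat3, -0.3413 to 0.487 for Trp53inp1, -0.0457 to 1.0256 for Gadd45a and -1.1156 to -0.7495 for Dnmt1. That of Phlda3 ran from 0.0775 to 1.1588 in the same fits and stayed above 0. Genes past the adjusted threshold then numbered 0 to 1 of the 10 p53 response genes, 0 to 3 of the further lists and 0 to 674 of all genes, and past the unadjusted threshold 0 to 3, 0 to 26 and 41 to 3418. Over all genes, DESeq2 called 1 gene at the adjusted threshold, and no filter gave 60 genes with an unadjusted p under 0.05 against 35. By the shortest annotated transcript, levels were 86.3 CPM per kb for Trp53, 166 for Mdm2, 86.6 for Cdkn1a, 129 for Ccng1, 372 for Bax, 44.8 for Bbc3, 25.4 for Zmat3, 75.0 for Trp53inp1, 7.44 for Phlda3 and 32.2 for Gadd45a, since shorter lengths raise the ratio. With the replicate block, 0 of the 10 genes passed either threshold, their median was 0.1014, and Gadd45a was at 0.49; the labels share only a number, and the correlation of deviations of same-numbered samples was -0.35 across genes. With the crossed pairing, chosen after seeing the data, 3 of all genes passed the adjusted and 297 the unadjusted threshold, with 0 of the 10 genes and 1 gene of the further lists past the unadjusted one. The causes of these shifts were not tested. Of the 10 genes, Phlda3 had the fewest counts, 50 in its lowest sample, and the largest standard error, 0.50, and how much of that comes from depth was not tested.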
